A study of Mus musculus with 12 samples.

Results

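Genes of the lysosome outside the cathepsin family were followed in mouse lung cells after carbon black or saline. The set was a list of 40 genes, made up of 9 membrane proteins and regulators, 16 subunits and accessory proteins of the V-ATPase, and 15 hydrolases counted with their helper proteins. A gene was tested where a probe annotated to its symbol had a detection p, a measure of signal above background, under 0.05 on at least 3 of 12 arrays. Of the 40 genes, 38 had a listed probe and 36 had a kept one, which left 8 membrane proteins and regulators, 13 V-ATPase genes and 15 hydrolases among 12380 features tested. Atp6v0c and Atp6v1f had no listed probe. Tfeb was detected on 1 array and Atp6v0d2 on 2, just outside the filter, while Gla (7 arrays) and Galc (10) were the kept members detected on the fewest arrays.

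The cells were CD11c+ cells of the lung, labelled as antigen-presenting cells (APC) and isolated by AutoMACS, which sorts cells with magnetic beads. All mice carried the labelled strain B6(Cg)-Tyrc-2J/J, an albino C57BL/6 background, and were either wild type or Mir22-/-, lacking the gene of the microRNA miR-22. Nanoparticulate carbon black (nCB) was given for 1 month to mice that were 2 months old at the start, with PBS as the reference, and every sample is labelled as 4 months old. The 4 groups were wild-type PBS, wild-type nCB, knockout PBS and knockout nCB, with 3 bead arrays each. The labels give neither the dose nor the cells in which the deletion acts. They also do not state that the 3 samples of a group were 3 animals, so p-values refer to a spread between samples that may be technical. No probe was listed for Mir22, so the genotype labels were not checked on the deleted gene. The RNA missing from the knockout is shown by its 3p strand with the seed (bases 2 to 8) in capitals, as RefSeq places it on GRCm38.p6 at chr11:75463772-75463793, plus strand.
miR-22-3p: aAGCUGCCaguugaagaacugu

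Lysosomes break down material that a phagocyte has taken up. The V-ATPase, a proton pump with a membrane sector (V0) and a soluble sector (V1), acidifies the lumen, soluble hydrolases cut lipids, sugars and proteins there, and glycosylated membrane proteins shield and connect the organelle. Transcription factors of the MiT/TFE family, TFEB among them, bind an E-box-like motif in promoters of many lysosomal genes, and lung macrophages are rich in lysosomes because they clear inhaled particles and surfactant.

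Mean intensity per array lay between 156 and 218, and 31.4% to 35.0% of probes were detected. After normalization, arrays of the same group correlated at 0.987 to 0.993 across the 12380 features. The number of arrays limits the precision. Itgax, which encodes CD11c, was detected on all 12 arrays. Cell type markers moved with exposure. In wild type 7 of 10 measured alveolar macrophage markers were lower with nCB and none was higher, and their summed normalized intensity lay at 25700 to 26400 under PBS and 14700 to 18200 under nCB. In the knockout 5 of 10 were lower, with sums of 24800 to 26800 and 20800 to 23100. Of 13 measured markers of monocytes and interstitial macrophages, 8 were higher in wild type (sums of 1560 to 1630 under PBS and 7530 to 9080 under nCB) and 9 in the knockout (1430 to 1740 and 4130 to 6160), with none lower. Dendritic cell markers were higher for 5 of 9 and lower for 1 in wild type, with sums of 399 to 499 and 1470 to 1770, and higher for 4 of 9 in the knockout, with sums of 250 to 295 and 719 to 1380. Neutrophil markers were lower for 3 of 7 in wild type and higher for 1 of 7 in the knockout. B cell markers were lower for 2 of 4 and T and NK cell markers higher for 1 of 5 in wild type. Lung epithelial markers were higher for 1 of 6 in the knockout. Over the 4 groups, neutrophil sums lay at 1210 to 2870 and lung epithelial sums at 3810 to 8890. Of all features, 8.88% were called higher and 9.22% lower with nCB in wild type, and 8.69% and 7.29% in the knockout. Of 6 measured markers of CD11c-positive antigen-presenting cells, Ptprc was lower with nCB in both genotypes, and the sums were 33200 to 36700 and 32900 to 37000 in wild type and 24400 to 32900 and 26900 to 31900 in the knockout. Fabp4, Xcr1 and Flt3 had no listed probe and Siglecf was detected on 3 arrays. In such bulk samples, fewer cells of a type and less RNA per cell cannot be told apart, and the part of these markers in the lysosomal results was not tested.

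Promoters of the members were read from RefSeq (GRCm38.p6, 250 bases before to 50 after the transcript start), which held 33 of the 40 genes. The 10-base palindromic CLEAR element, a motif that TFEB binds, was in 0 of 33, against 0.37% of 27025 genes. Its 6-base core CACGTG, which reads the same on both strands and lies at the centre of the longer motif, was in 9 of 33 (27.3%), against 8.09% of all genes. These were Lamp1, Mcoln1, Atp6v0b, Atp6v0d1, Atp6v0e, Atp6v1a, Gla, Glb1 and Gaa. The 8-base form TCACGTGA, added after the data were seen, was in 5 of 33 (15.2%), against 1.12%. A match is a description of these letters and not a binding site. The 250 bases before the start are shown for members on which the results turn, with CACGTG in capitals. Lamp1 (chr8:13158911-13159160, plus strand) holds the core 4 times and Mcoln1 (chr8:3500269-3500518, plus strand) and Atp6v0b (chr4:117887330-117887579, minus strand) 2 times each. Glb1 (chr9:114400828-114401077, plus strand) holds it once, and Cd63 (chr10:128909095-128909344, plus strand), the member that changed most, holds none in this window. The Cd63 window lies inside the span of the gene (chr10:128896231-128912822). The bases before the upstream end of that span were not read.
Lamp1: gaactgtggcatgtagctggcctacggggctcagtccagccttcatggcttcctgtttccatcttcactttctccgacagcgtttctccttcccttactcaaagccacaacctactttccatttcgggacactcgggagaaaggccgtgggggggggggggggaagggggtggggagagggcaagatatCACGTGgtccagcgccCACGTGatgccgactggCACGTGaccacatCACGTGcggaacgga
Mcoln1: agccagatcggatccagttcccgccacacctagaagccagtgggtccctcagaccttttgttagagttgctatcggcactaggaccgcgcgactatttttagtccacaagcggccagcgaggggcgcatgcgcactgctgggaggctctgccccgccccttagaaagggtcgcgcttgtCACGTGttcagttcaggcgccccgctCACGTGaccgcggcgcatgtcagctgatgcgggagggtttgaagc
Atp6v0b: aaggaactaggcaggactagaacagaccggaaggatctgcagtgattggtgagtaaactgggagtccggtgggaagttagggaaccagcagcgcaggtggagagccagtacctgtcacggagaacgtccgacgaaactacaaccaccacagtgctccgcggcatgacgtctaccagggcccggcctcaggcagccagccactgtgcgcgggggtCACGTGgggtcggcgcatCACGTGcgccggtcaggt
Glb1: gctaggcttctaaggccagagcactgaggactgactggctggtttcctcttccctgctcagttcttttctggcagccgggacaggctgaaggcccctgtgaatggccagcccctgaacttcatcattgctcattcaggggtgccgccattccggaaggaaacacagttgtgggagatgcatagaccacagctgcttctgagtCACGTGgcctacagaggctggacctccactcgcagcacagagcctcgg
Cd63: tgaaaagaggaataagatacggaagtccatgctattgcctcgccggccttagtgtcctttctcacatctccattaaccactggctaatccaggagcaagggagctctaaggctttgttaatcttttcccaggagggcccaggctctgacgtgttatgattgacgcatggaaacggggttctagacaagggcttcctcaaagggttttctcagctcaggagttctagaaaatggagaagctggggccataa

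With nCB, about as many features rose as fell over the whole array, while nearly all called lysosomal members were higher. The list was chosen with earlier results of these data known, so its contrast with all features is a description. In wild type 14 of 36 members rose and 0 fell, against 8.88% of all features called higher and 9.22% called lower. Cd63 rose the most, by 2.76, and Atp6v0a1, Atp6v1c1, Psap and Hexa rose by 0.62 to 0.70. Gla, also among the 14, differed by 0.70 near background. It was detected on 1 of 3 arrays in each PBS group, so that it passed the filter only through nCB arrays. Its difference ran from 0.22 to 2.46 between settings. With detection required on all 12 arrays, which left out Gla, 14 of 34 members rose and 2 fell in wild type. Of 8063 features, 900 rose and 1099 fell in that setting. In the knockout 18 of 36 rose, against 8.69% of features called higher, and 2 fell (Laptm4a and Ppt1), against 7.29% called lower. A call is a limma adjusted p under 0.05 over all 12380 features, and differences are on the log2 intensity scale. The median log2 difference of the members was 0.27 in wild type and 0.38 in the knockout, and that of all features was −0.02 and −0.01. The sizes were modest, since 30 of 36 members in wild type and 32 in the knockout had 95% intervals within 1 log2 unit of 0. At an unadjusted p under 0.05, 20 members and 3639 of the 12380 features passed in wild type, and 24 members and 3511 features in the knockout. In wild type the nCB arrays lay above all PBS arrays for 19 members and below for 4, against 15.4% and 18.7% of features. In the knockout the counts were 21 and 2, against 15.2% and 15.3%.

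By role, 2 of 8 membrane proteins and regulators, 5 of 13 V-ATPase genes and 7 of 15 hydrolases rose in wild type, with median log2 differences of 0.16, 0.25 and 0.31. In the knockout the counts were 2 of 8, 8 of 13 and 8 of 15, and the medians 0.29, 0.45 and 0.41. The group of 8 membrane proteins and regulators includes Npc2, a soluble cholesterol carrier. In the knockout 1 of these 8 and 1 of the 15 hydrolases fell, and no V-ATPase gene was called lower in either genotype. In wild type, differences ran from −0.46 to 2.76 among membrane proteins, from −0.02 to 0.72 among V-ATPase genes and from −0.35 to 0.70 among hydrolases, and in the knockout from −0.49 to 2.36, −0.21 to 1.20 and −0.60 to 0.75. These counts depend on the scaling of the arrays. When the arrays were scaled to a common median only, without quantile normalization, 2 members rose in wild type (Cd63 and Gla) and 1 fell (Laptm4a). Of all 12380 features, 531 (4.29%) rose and 754 fell there, so that the 2 higher members lay near the background share. Of these 2, Gla, also 1 of the 7 hydrolases that rose in wild type, passed the detection filter only through nCB arrays. In the knockout 4 members rose (Cd63, Atp6v0a1, Lipa and Psap) and 0 fell, against 497 (4.01%) and 300 features. The member medians were 0.15 and 0.28, against −0.11 and −0.02 over all features.

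**Figure D1:**
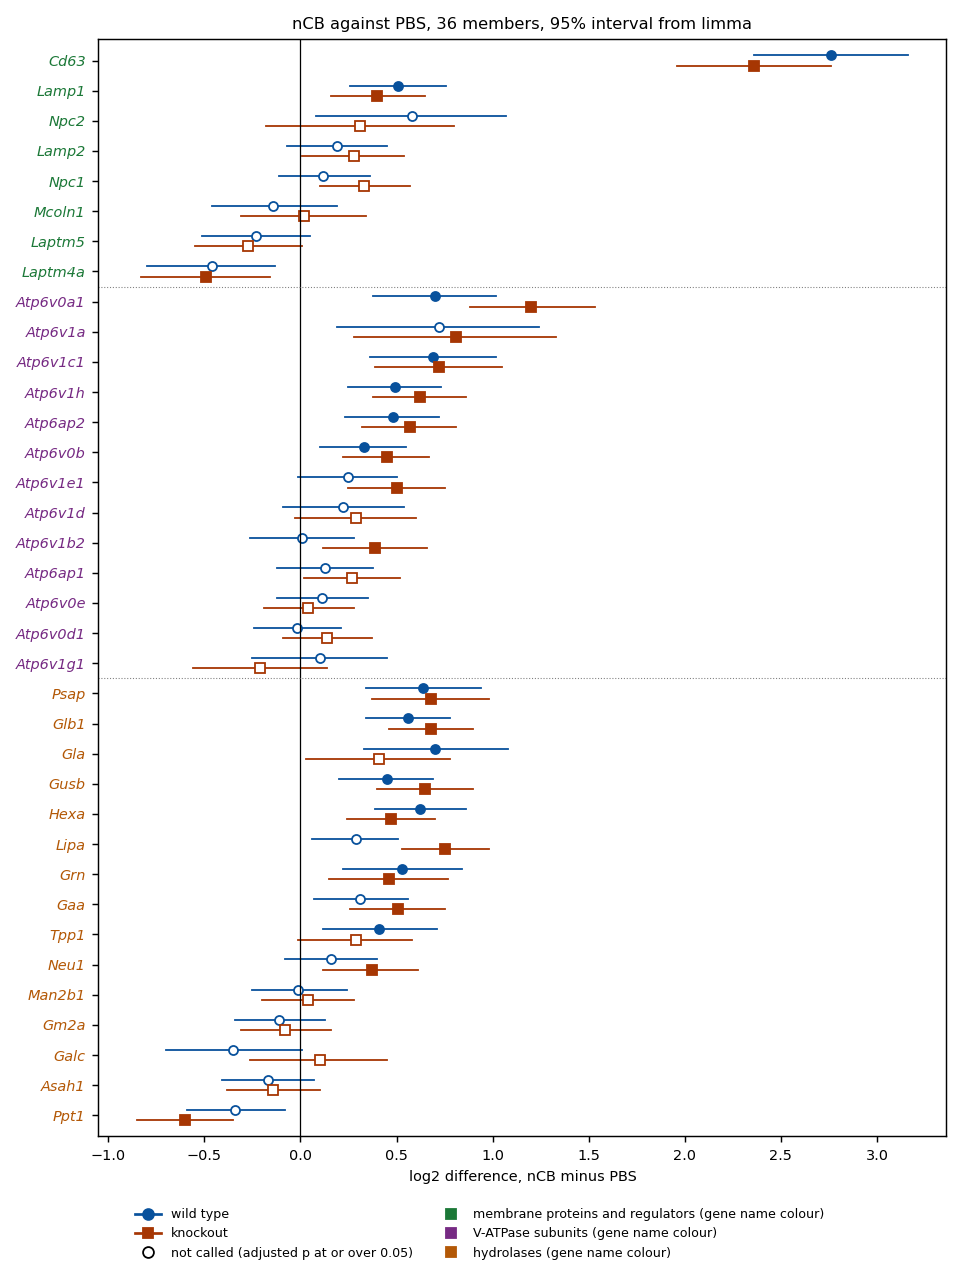
Log2 difference between nCB and PBS (x axis) for each of the 36 tested members (y axis, ordered by mean effect within the role), in wild type (circles) and knockout (squares), with 95% intervals from limma; filled symbols passed the adjusted p of 0.05. Cd63 stands apart at 2.76 and 2.36, and the filled symbols lie right of 0 except for Laptm4a and Ppt1 in the knockout.

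Among the membrane proteins, Cd63 changed most. Cd63 (chr10:128896231-128912822) encodes a tetraspanin of late endosomes, lysosomes and exosomes. Its log2 intensity was 9.37, 9.67 and 10.07 on the wild-type PBS arrays and 12.36, 12.60 and 12.42 on the wild-type nCB arrays. In the knockout it was 9.88, 10.31 and 9.55 under PBS and 12.34, 12.29 and 12.21 under nCB. Every nCB array lay more than 1 log2 unit above every PBS array, with no overlap. The difference was 2.76 ± 0.19 (SE, n = 3 per group) in wild type, a 6.76-fold rise (limma adjusted p = 5.49e-08), and 2.36 ± 0.19 in the knockout, a 5.14-fold rise (adjusted p = 3.6e-07). All 3 probes of Cd63 rose, by 1.92 to 2.76 in wild type and by 1.82 to 2.36 in the knockout.

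Lamp1 (chr8:13159161-13175338), one of the most abundant glycoproteins of the lysosomal membrane, rose in both genotypes. It read 11.05, 11.14 and 10.98 in wild-type PBS and 11.42, 11.72 and 11.57 in wild-type nCB. In knockout PBS it read 11.24, 11.18 and 11.16, and in knockout nCB 11.58, 11.74 and 11.47. The nCB arrays were above the PBS arrays of their genotype throughout. The rise was 0.51 ± 0.12 in wild type (adjusted p = 0.00537) and 0.40 ± 0.12 in the knockout (adjusted p = 0.0268). The call in the knockout was lost when any of knockout PBS arrays 2 and 3 or knockout nCB arrays 1 and 2 was left out, with an adjusted p of up to 0.114.

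Laptm4a, a small transmembrane protein of late endosomes and lysosomes, went the other way. Its values were 10.70, 10.50 and 10.31 in wild-type PBS, 10.08, 10.26 and 9.77 in wild-type nCB, 10.35, 10.81 and 10.57 in knockout PBS and 9.98, 10.03 and 10.23 in knockout nCB. The nCB arrays lay below the PBS arrays in both genotypes, with gaps smaller than the spread within a group. The difference was −0.49 ± 0.16 in the knockout (adjusted p = 0.0434) and −0.46 ± 0.16 in wild type, where it missed the threshold (adjusted p = 0.0528). Leaving out 1 array ended the knockout call in 6 of 12 cases (wild-type PBS 2, wild-type nCB 1, knockout PBS 2 and 3, knockout nCB 1 and 2), with an adjusted p of up to 0.164. It brought a call in wild type without wild-type PBS 3, wild-type nCB 2, knockout PBS 1 or knockout PBS 2. Laptm4a was also called lower in wild type with scaling to a common median, no background correction, an offset of 50, detection on all 12 arrays and the robust prior. Its knockout call was lost with scaling to a common median, the deposited processed matrix, no detection filter, the compared groups alone and the replicate number as a block.

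Mcoln1, the calcium channel TRPML1 of the lysosomal membrane, showed no detectable difference. It read 6.23, 6.09 and 6.08 in wild-type PBS, 6.09, 6.23 and 5.67 in wild-type nCB, 5.86, 6.11 and 6.18 in knockout PBS and 5.87, 6.09 and 6.24 in knockout nCB, so that all groups overlapped. Its 95% interval ran from −0.46 to 0.19 in wild type and from −0.31 to 0.34 in the knockout. Lamp2, Laptm5, Npc1 and Npc2, the latter pair moving cholesterol out of lysosomes, were not called either, with differences between −0.27 and 0.58. Npc1 was called higher in the knockout without knockout PBS 1. It was also called there with no background correction, an offset of 50, no detection filter, detection on all 12 arrays and the robust prior. These Npc1 calls came from its brightest probe alone. In wild type the other kept Npc1 probes differed by 0.40 ± 0.16 and −0.33 ± 0.20. In the knockout they differed by 0.15 ± 0.16 and −0.44 ± 0.20, and none of these was called. Lamp2 was called higher in wild type with the mean of its probes. For Npc2 in wild type the nCB arrays (9.01 to 9.71) lay above the PBS arrays (8.26 to 8.93), and its difference of 0.58 ± 0.23 missed the threshold (adjusted p = 0.105). For Tfeb the intensity before background correction was 80.0 to 92.8 over the 12 arrays, beside array medians of 79.6 to 93.2, so that the factor could not be compared at this signal.

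Among V-ATPase genes, Atp6v0a1 rose most in the knockout. Atp6v0a1 (chr11:101009422-101063719) encodes an a subunit of the membrane sector, through which protons pass. It read 8.54, 8.43 and 8.15 in wild-type PBS and 8.95, 8.96 and 9.32 in wild-type nCB. In the knockout it read 8.49, 8.30 and 8.22 under PBS and 9.61, 9.73 and 9.28 under nCB. The nCB arrays were higher without overlap in both genotypes. The rise was 0.70 ± 0.15 in wild type (1.63-fold, adjusted p = 0.00392) and 1.20 ± 0.15 in the knockout (2.30-fold, adjusted p = 4.46e-05). A second Atp6v0a1 probe, detected on 3 arrays, differed by 0.08 and 0.17 and was not called, and the mean of both probes rose by 0.39 (adjusted p = 0.0179) and 0.69 (adjusted p = 0.000371).

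Subunits of the soluble sector rose as well. Atp6v1c1, a subunit of the stalk that links both sectors, read 8.70, 9.18 and 9.07 in wild-type PBS, 9.65, 9.65 and 9.72 in wild-type nCB, 9.18, 8.86 and 9.15 in knockout PBS and 10.06, 9.53 and 9.75 in knockout nCB. The nCB arrays exceeded all PBS arrays, and the rise was 0.69 ± 0.15 (adjusted p = 0.00518) and 0.72 ± 0.15 (adjusted p = 0.00431). Atp6v1h, a regulatory subunit of this sector, read 9.20, 9.07 and 9.19, then 9.75, 9.66 and 9.51 in wild-type PBS and nCB, and 9.09, 9.14 and 8.99, then 9.77, 9.75 and 9.55 in knockout PBS and nCB. It rose by 0.49 ± 0.11 (adjusted p = 0.00608) and 0.62 ± 0.11 (adjusted p = 0.00126), with every nCB array above every PBS array. The second Atp6v1h probe, detected on 3 arrays, differed by 0.17 and −0.01 and was not called, and with the mean of both probes the call was lost (adjusted p = 0.0746 in wild type and 0.103 in the knockout).

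Atp6v1a, the catalytic subunit that splits ATP, varied more between arrays. It read 7.03, 7.54 and 7.65 in wild-type PBS, 8.03, 7.76 and 8.57 in wild-type nCB, 7.66, 7.06 and 7.48 in knockout PBS and 8.72, 7.96 and 7.93 in knockout nCB. The groups did not overlap within a genotype, though 1 array of each nCB group stood well above the others. The difference was 0.72 ± 0.25 in wild type (adjusted p = 0.056) and 0.81 ± 0.25 in the knockout (adjusted p = 0.0358). The knockout call was lost without knockout PBS 2, knockout PBS 3 or knockout nCB 1, with an adjusted p of up to 0.154, and a call in wild type arose without wild-type nCB 2, knockout PBS 2 or knockout nCB 1. Atp6v0b, a proteolipid of the membrane sector, rose by 0.33 ± 0.11 in wild type (adjusted p = 0.043) and 0.45 ± 0.11 in the knockout (adjusted p = 0.00844). Its wild-type call was lost in 9 of 12 fits with 1 array left out (highest adjusted p 0.123). Atp6v1e1 of the stalk (0.50 ± 0.12) and Atp6v1b2 of the catalytic ring (0.39 ± 0.12) rose in the knockout. The Atp6v1b2 call was lost in 8 of 12 such fits (highest adjusted p 0.144).

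Other subunits of the same pump did not pass. Atp6v0d1, the ubiquitous d subunit, read 10.88, 10.95 and 10.80 in wild-type PBS, 10.78, 10.91 and 10.88 in wild-type nCB, 10.86, 10.65 and 10.84 in knockout PBS and 10.94, 10.85 and 10.98 in knockout nCB. The groups overlapped and the 95% intervals of −0.24 to 0.21 and −0.09 to 0.37 bounded the difference closely. None of its 4 probes was called. Atp6v0e, Atp6v1d and Atp6v1g1 differed by −0.21 to 0.29 and the accessory protein Atp6ap1 by 0.13 and 0.27, none of them called. In the knockout, Atp6v1d was called when knockout PBS 1 was left out and Atp6ap1 with no background correction. Atp6v0d2, the d subunit known from osteoclasts and alveolar macrophages, gave intensities before background correction of 77.9 to 96.5, near the array medians, and was not tested.

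Hydrolases and their helpers made up 7 of the 14 members that rose in wild type. Psap (chr10:60277628-60302600) encodes the precursor of saposins, which lift lipids out to the enzymes. It read 13.11, 13.29 and 13.29 in wild-type PBS, 13.82, 13.69 and 14.11 in wild-type nCB, 13.38, 13.22 and 13.28 in knockout PBS and 14.22, 13.96 and 13.72 in knockout nCB. The groups did not overlap, and Psap rose by 0.64 ± 0.14 (adjusted p = 0.00452) and 0.68 ± 0.14 (adjusted p = 0.00362). Its second probe rose by 0.70 in both genotypes.

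Hexa and Glb1 rose in both genotypes. Hexa, a chain of beta-hexosaminidase, read 10.58, 10.50 and 10.36 in wild-type PBS, 11.12, 11.12 and 11.07 in wild-type nCB, 10.61, 10.84 and 10.61 in knockout PBS and 11.14, 11.17 and 11.15 in knockout nCB. The nCB arrays were tightly grouped above all PBS arrays, at 0.62 ± 0.11 (adjusted p = 0.000698) and 0.47 ± 0.11 (adjusted p = 0.00726). Glb1, the beta-galactosidase, read 8.22, 8.30 and 8.26, then 8.78, 8.78 and 8.89 in wild-type PBS and nCB, and 8.19, 8.20 and 8.25, then 8.98, 8.92 and 8.77 in knockout PBS and nCB. It rose by 0.56 ± 0.10 (adjusted p = 0.00111) and 0.68 ± 0.10 (adjusted p = 0.000268), and no nCB array reached down to a PBS array.

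Gla, the alpha-galactosidase A, lay near background, being detected on 1 of 3 arrays in each PBS group, 3 of 3 in wild-type nCB and 2 of 3 in knockout nCB. It read 4.57, 4.41 and 4.48 in wild-type PBS, 5.36, 4.80 and 5.41 in wild-type nCB, 4.56, 4.27 and 4.53 in knockout PBS and 5.02, 5.06 and 4.50 in knockout nCB. The wild-type groups did not overlap and the knockout groups did. The rise was 0.70 ± 0.18 in wild type (adjusted p = 0.0104, and 0.0527 without wild-type nCB 1) and the difference 0.41 ± 0.18 in the knockout (adjusted p = 0.137), where it was called without knockout nCB 3, the lowest of that group. The size of the wild-type rise differed between settings, at 0.22 with no background correction and 2.46 in the deposited processed matrix.

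Lipa (chr19:34492316-34527474), the acid lipase that frees cholesterol and fatty acids from lipoprotein lipids, rose in the knockout. It read 10.40, 10.43 and 10.53 in wild-type PBS, 10.76, 10.73 and 10.72 in wild-type nCB, 10.35, 10.35 and 10.32 in knockout PBS and 11.03, 11.26 and 11.00 in knockout nCB. Groups did not overlap in either genotype, and the knockout arrays were the lowest under PBS and the highest under nCB. The rise was 0.75 ± 0.11 in the knockout (1.69-fold, adjusted p = 0.000133) and the difference 0.29 ± 0.11 in wild type (adjusted p = 0.0785). Lipa was called higher in wild type too with no background correction, an offset of 50, no detection filter, detection on all 12 arrays and the robust prior. A second Lipa probe gave 0.70 ± 0.13 and 0.32 ± 0.13, with the same calls when each probe was a feature. By that probe, knockout and wild type overlapped under PBS.

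Ppt1, which strips fatty acids from palmitoylated proteins, was the hydrolase that fell. It read 8.83, 8.73 and 8.64 in wild-type PBS, 8.44, 8.53 and 8.23 in wild-type nCB, 8.72, 8.77 and 8.82 in knockout PBS and 8.03, 8.16 and 8.33 in knockout nCB. All nCB arrays were below the PBS arrays, by −0.60 ± 0.12 in the knockout (adjusted p = 0.00241) and −0.34 ± 0.12 in wild type (adjusted p = 0.0628). In wild type it was called lower with no background correction, an offset of 50, detection on all 12 arrays and the robust prior. Tpp1, a lysosomal peptidase, rose by 0.41 ± 0.14 in wild type (adjusted p = 0.0491).

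Of the other hydrolases, Gusb, the beta-glucuronidase, and Grn, progranulin, a lysosomal glycoprotein rather than an enzyme, rose in both genotypes, by 0.45 and 0.65 and by 0.53 and 0.46. Gaa, which splits glycogen (0.51 ± 0.12), and Neu1, a sialidase (0.37 ± 0.11), rose in the knockout, and Gaa was called in wild type too with no background correction, an offset of 50 and the robust prior. Asah1, Galc, Gm2a and Man2b1 were not called, with differences of −0.35 to 0.10. Several of these calls lay close to the threshold. With 1 array left out, Tpp1 lost its call in 8 of 12 fits (highest adjusted p 0.174), Grn in 3 fits in wild type (wild-type PBS 3, wild-type nCB 2 and 3, up to 0.0811) and in 7 in the knockout (up to 0.177), Neu1 in 7 (up to 0.139), and Gusb in wild type without wild-type PBS 3 or wild-type nCB 2 (up to 0.077).

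**Figure D2:**
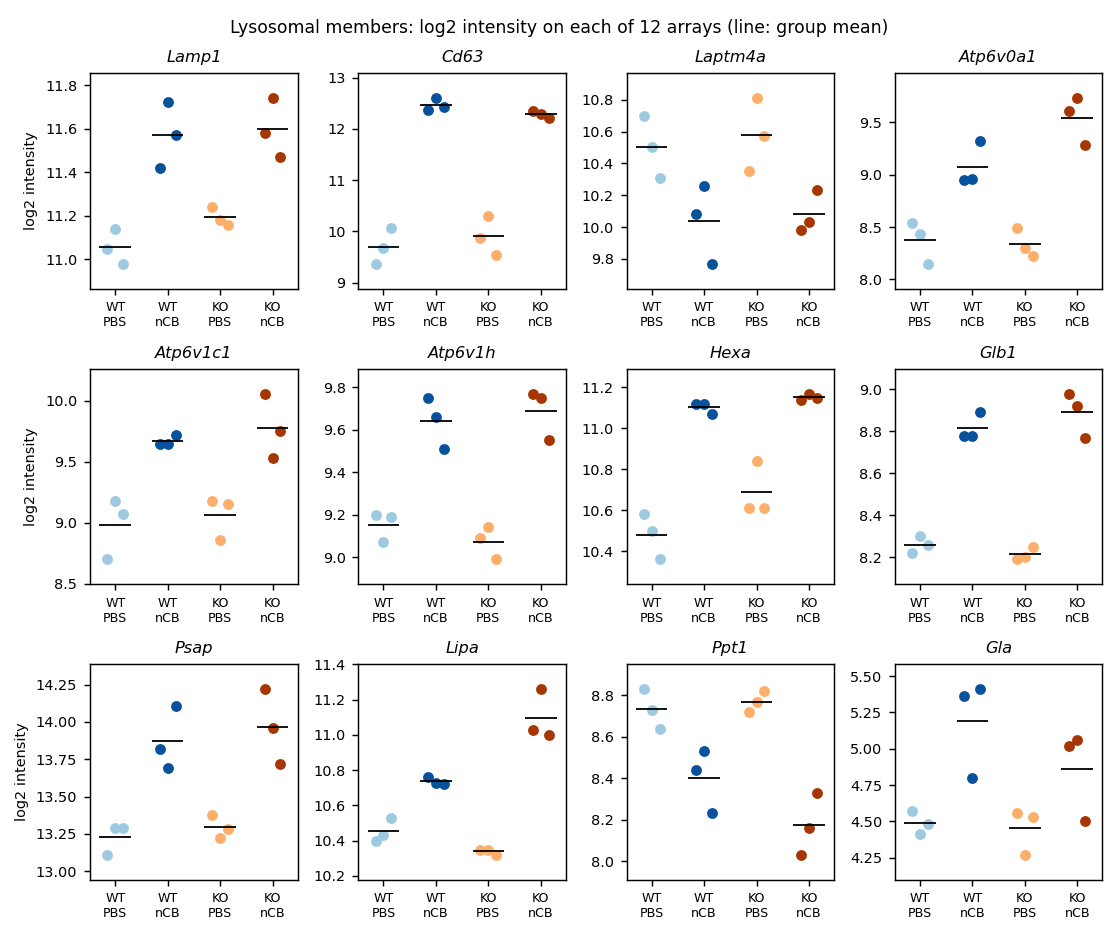
Log2 intensity (y axis, a scale of its own in each panel) of 12 members on each of the 12 arrays, by group (x axis; WT wild type, KO knockout), with a line at the mean of 3 arrays. The nCB points lie above the PBS points of the same genotype except for Laptm4a and Ppt1, where they lie below, and for Gla in the knockout, where 4.50 under nCB lies below 4.56 under PBS.

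Of the 36 members, 12 were called higher in both genotypes, 2 were called in wild type alone (Gla and Tpp1), 8 in the knockout alone and 14 in neither. Of all 12380 features, 703 were called higher and 572 lower in both genotypes, 2 in opposite directions, 963 in wild type alone, 701 in the knockout alone and 9439 in neither. The 12 were Lamp1 and Cd63, then Atp6v0a1, Atp6v0b, Atp6v1c1, Atp6v1h and Atp6ap2, then Hexa, Glb1, Gusb, Psap and Grn. The 8 were Atp6v1a, Atp6v1b2, Atp6v1e1, Gaa, Lipa, Neu1, Laptm4a and Ppt1. A call in 1 genotype does not show a difference between them, which the interaction tests.

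Knockout and wild type did not differ detectably for any member, each taken by its brightest probe. Under PBS 0 of 36 members were called by limma, against 0.412% of all features called higher and 0.533% called lower, and 0 members and 1025 of the 12380 features had an unadjusted p under 0.05. The difference farthest from 0 was that of Galc at −0.25 ± 0.17 (adjusted p = 0.811), and all 95% intervals lay between −0.60 and 0.61. Under nCB 0 of 36 were called, against 1.93% of features called higher and 1.49% lower, with intervals between −0.73 and 0.79, and 3 members and 1991 features had an unadjusted p under 0.05. The arrays of both genotypes did not overlap for 2 members higher and 1 lower in the knockout under PBS, against 6.16% and 7.04% of features, and for 5 and 1 under nCB, against 10.5% and 9.35%. Scaling to a common median gave 0 members in both comparisons too, while over all features it changed 51 higher and 66 lower to 18 and 60 under PBS, where it moved the median of all features from −0.01 to −0.13, and 239 and 185 to 38 and 81 under nCB.

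Lipa and Atp6v0a1 came closest under nCB. For Lipa the knockout nCB arrays (11.00 to 11.26) lay above the wild-type nCB arrays (10.72 to 10.76), a difference of 0.36 ± 0.11 (adjusted p = 0.082). It passed in 4 of the other settings tried, which were no background correction, an offset of 50, no detection filter and a robust prior. For Atp6v0a1 the values overlapped (9.28 to 9.73 against 8.95 to 9.32), with a difference of 0.46 ± 0.15 (adjusted p = 0.115). Without knockout nCB 3, Atp6v0a1 was the 1 member called.

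The interaction, the nCB effect in the knockout minus that in wild type, was called for 0 of 36 members, against 0.0404% of features called higher and 0.0889% lower, and 3 members and 1228 features had an unadjusted p under 0.05. It was 0.50 ± 0.21 for Atp6v0a1 (adjusted p = 0.457), 0.47 ± 0.15 for Lipa (adjusted p = 0.277) and 0.38 ± 0.18 for Atp6v1b2 (adjusted p = 0.498). The intervals reached from −0.96 to 0.96, so that a difference in response of up to that size was not excluded by these arrays. Over all features 5 were higher and 11 lower, and 0 and 6 with scaling to a common median. In the same comparison of knockout with wild type under nCB, 3 of 10 alveolar macrophage markers were higher, while 5 of 13 markers of monocytes and interstitial macrophages, 2 of 9 dendritic cell markers (Mgl2 and Ccl17) and 2 of 6 markers of CD11c-positive antigen-presenting cells (Cd74 and H2-Ab1) were lower. Under PBS, Mgl2 and H2-Ab1 were lower in the knockout.

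**Figure D3:**
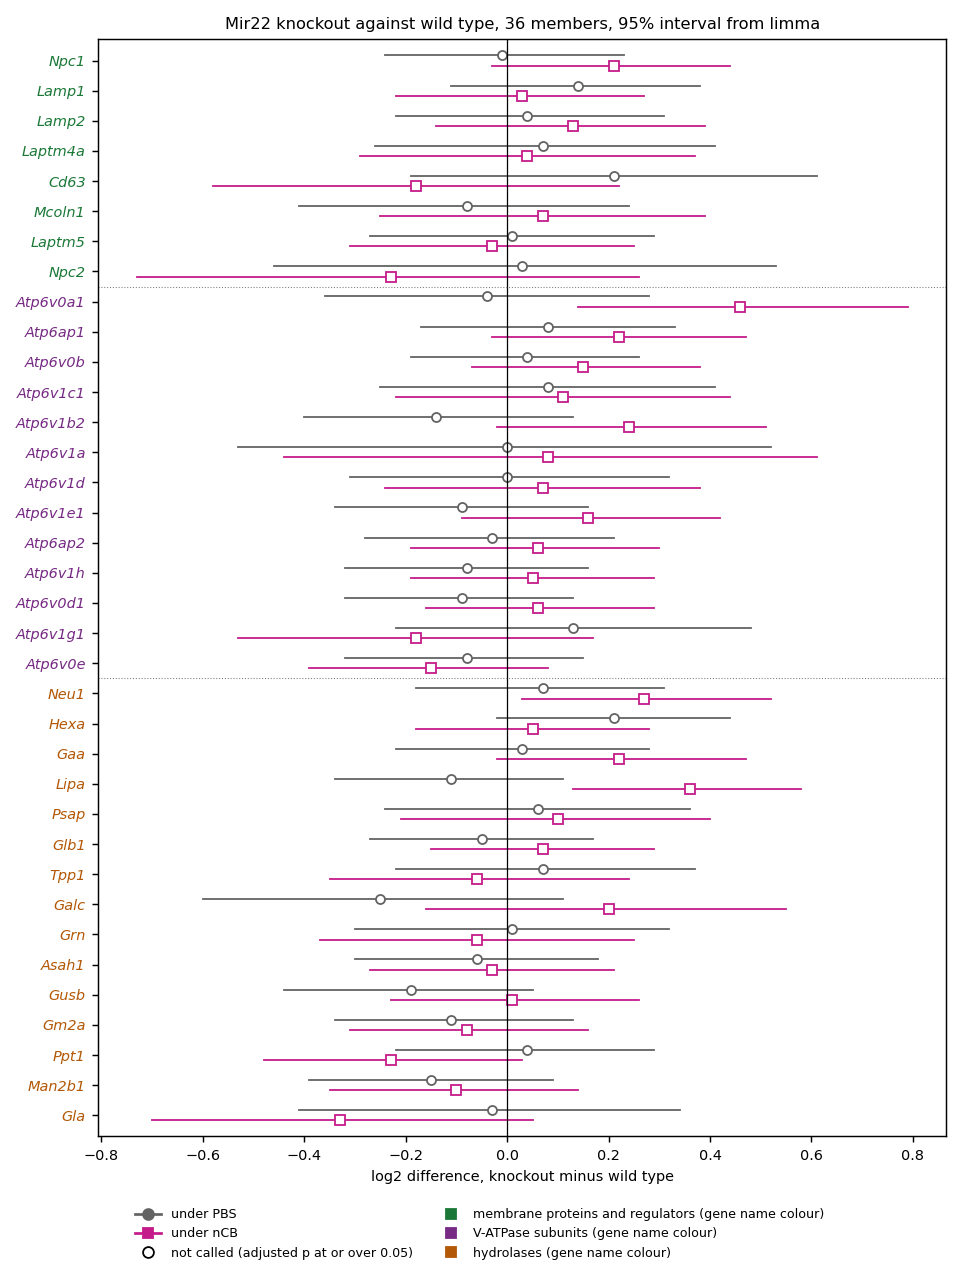
Log2 difference between knockout and wild type (x axis) for each of the 36 members (y axis, ordered by mean effect within the role), under PBS (circles) and under nCB (squares), with 95% intervals from limma; open symbols did not pass the adjusted p of 0.05. No symbol is filled, and the intervals of Atp6v0a1, Lipa and Neu1 under nCB do not cross 0.

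Several members had more than 1 probe, and the probes did not always move alike. With each of the 62 kept member probes as a feature, 24 were called higher in wild type and 0 lower, against 7.88% and 8.00% of 17346 probes, and 25 higher and 3 lower in the knockout, against 7.81% and 7.38%. Lamp2, whose transcripts are spliced to different ends, had 6 probes. One was detected on 4 arrays and not called. The 2 annotated to NM_010685, the brightest among them, differed by 0.19 ± 0.13 and 0.15 ± 0.11 in wild type and were not called. In the knockout these 2 differed by 0.28 ± 0.13 (limma adjusted p = 0.169) and 0.33 ± 0.11 (adjusted p = 0.0619), not called either. Of the 3 annotated to NM_001017959, those called rose by 0.91 ± 0.13 (adjusted p = 8.44e-05) and 0.66 ± 0.13 (adjusted p = 0.00161), and the other differed by 0.45 ± 0.20. The first of these read 8.94, 8.89 and 8.84 in wild-type PBS and 9.94, 9.78 and 9.67 in wild-type nCB, with no overlap. In the knockout it read 8.99, 9.01 and 9.11, then 9.76, 9.34 and 9.55, a rise of 0.51 ± 0.13 (adjusted p = 0.0105), while the others of the 3 differed there by 0.26 ± 0.13 (adjusted p = 0.199) and 0.16 ± 0.20 (adjusted p = 0.661). Where on each transcript these probes lie was not analysed here, and the Lamp2 values were chosen after they were seen.

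Atp6ap2, the accessory subunit also known as the prorenin receptor, rose in both genotypes by its brightest probe (0.48 ± 0.11 and 0.57 ± 0.11). Its 3 dimmer probes rose by 0.66 to 0.71 in wild type and differed by 0.00 to 0.14 in the knockout, where none was called. With the mean of its probes, the knockout difference was 0.21 and no longer called (adjusted p = 0.199). The interaction of these dimmer probes was −0.66 to −0.52, not called (lowest adjusted p 0.19).

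Gusb showed a like split. Its brightest probe read 11.27, 11.33 and 10.98 in wild-type PBS, 11.53, 11.74 and 11.65 in wild-type nCB, 10.98, 11.02 and 11.01 in knockout PBS and 11.70, 11.69 and 11.57 in knockout nCB, so that nCB arrays were higher in both genotypes. One dimmer probe read 7.64, 7.68 and 7.35, then 8.07, 8.16 and 8.02 in wild-type PBS and nCB, and 7.62, 7.56 and 7.73, then 7.89, 7.19 and 7.36 in knockout PBS and nCB. That probe rose in wild type (0.53 ± 0.16), overlapped in the knockout (−0.16 ± 0.16), and was the 1 member probe called between genotypes under nCB, at −0.60 ± 0.16 (adjusted p = 0.0499). The other dimmer probes rose by 0.47 and 0.52 in wild type and differed by 0.20 and 0.37 in the knockout, the latter called (adjusted p = 0.0471). With the mean of its probes, Gusb was no longer called in the knockout (0.27, adjusted p = 0.0891). For Asah1, the acid ceramidase, the brightest probe differed by −0.14 in the knockout and the dimmer one fell by 0.63 (adjusted p = 0.0104).

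Galc, which degrades galactosylceramide of myelin, differed in sign between probes. Its brightest probe read 5.06, 4.44 and 5.20 in wild-type PBS, 4.44, 4.58 and 4.64 in wild-type nCB, 4.69, 4.69 and 4.58 in knockout PBS and 4.94, 4.58 and 4.72 in knockout nCB. The second read 4.35, 4.61 and 4.54, then 4.75, 4.63 and 5.03 in wild-type PBS and nCB, and 4.29, 4.62 and 4.22, then 4.67, 4.87 and 4.95 in knockout PBS and nCB. Both lay near background and the groups of the first overlapped in both genotypes. In wild type they differed by −0.35 ± 0.17 and 0.31 ± 0.14, neither called, although the first was called lower without wild-type PBS 2, the array at 4.44, and the second rose in the knockout (0.45 ± 0.14, adjusted p = 0.0464).

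**Figure D4:**
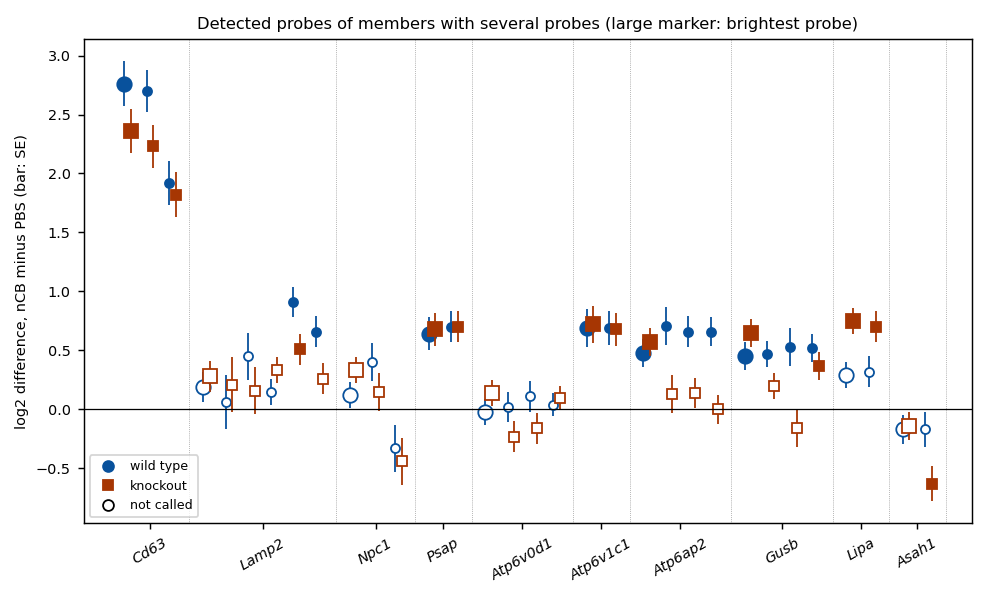
Log2 difference between nCB and PBS (y axis, bars for the SE) of each kept probe of 10 members (x axis), in wild type (circles) and knockout (squares), with the brightest probe drawn large and open symbols for probes not called. The probes of Cd63 lie between 1.82 and 2.76, while those of Lamp2, Atp6ap2 and Gusb spread, and those of Atp6v0d1 surround 0.

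Other lysosomal genes were followed in 5 lists, to be read against the background of 8.88% of features called higher and 9.22% lower in wild type and 8.69% and 7.29% in the knockout. Of 21 other lysosomal membrane proteins measured, 5 rose and 2 fell in wild type and 6 rose and 3 fell in the knockout, with median log2 differences of 0.07 and 0.22. Slc11a1, the metal transporter NRAMP1 of phagosomes, rose by 2.61 ± 0.12 and 2.59 ± 0.12, Gpnmb by 1.97 ± 0.12 and 1.54 ± 0.12, and Mcoln2, a channel related to Mcoln1, by 1.22 ± 0.11 and 0.99 ± 0.11, each in wild type and knockout. Cd164, an endosomal sialomucin, fell by 0.82 and by 0.49.

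Of 11 other V-ATPase genes, 1 rose in wild type and 4 in the knockout and none fell. Tcirg1, an alternative a subunit known for acid secretion by osteoclasts, rose by 0.65 ± 0.15 and 0.96 ± 0.15, and Wdr7 rose by 0.57 ± 0.16 in the knockout. Of 23 other hydrolases, 6 rose and 3 fell in wild type and 6 rose and 2 fell in the knockout, with a median of 0.14 in both. Lgmn, the asparaginyl endopeptidase legumain, rose by 1.76 ± 0.13 and 1.39 ± 0.13, Hpse, heparanase, by 1.25 ± 0.15 and 0.74 ± 0.15, and Naglu, which degrades heparan sulfate, by 0.77 ± 0.15 and 0.67 ± 0.15. Pla2g15, a lysosomal phospholipase, fell by 0.84 in wild type and Ids, a sulfatase, fell by 0.60 and by 0.63.

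Of 14 genes of mannose 6-phosphate sorting and other sorting receptors, 2 rose and 1 fell in wild type, and 3 rose and 0 fell in the knockout. Igf2r, the large mannose 6-phosphate receptor, rose by 2.23 ± 0.15 and 2.12 ± 0.15, and was detected on 8 of 12 arrays. Gga2, an adaptor of the same route, rose by 0.56 ± 0.11 and 0.55 ± 0.11, while Sort1, the receptor sortilin, fell by 0.87 in wild type. Of 14 genes of the mTORC1 scaffold and the MiT/TFE factors, 3 rose in wild type (Fnip1, Rragc and Lamtor4) and 2 in the knockout (Fnip1 and Rragc), and Tfec fell by 0.40 in the knockout. Between genotypes under nCB, Slc38a9, an arginine sensor at the lysosome, was higher in the knockout by 0.72 ± 0.16 (limma adjusted p = 0.0241). Hpse was lower, at −0.73 ± 0.15 (adjusted p = 0.0139). They were 1 of 21 other membrane proteins and 1 of 23 other hydrolases, and the only 2 genes of these 5 lists called in that comparison. Of all features, 1.93% were called higher there and 1.49% lower.

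CACGTG was in 6 of 17 matched members called higher in at least 1 genotype (Lamp1, Atp6v0b, Atp6v1a, Gla, Glb1 and Gaa) and in 3 of 11 called in neither (Mcoln1, Atp6v0d1 and Atp6v0e). Among the 6, Gla passed the detection filter only through nCB arrays. In Lamp1 the copies began at −61, −45, −28 and −15 from the start. With the 250 bases before the start alone, 7 of 33 members held it (21.2%), against 6.86% of all genes, which were the same 6 of the 17 called higher and 1 of the 11 called in neither (Mcoln1).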

How the data were processed

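Total RNA of 12 samples (100 ng each, per the labels' protocols) was labelled with biotin and read on Illumina bead arrays. The deposited table gives the intensity and a detection p-value of 45281 probes per array, exported with GenomeStudio per the submitters' processing notes (version not given in the sources used here). From the values, its arrays were not scaled to each other. The authors' processed matrix holds log2 values of 24952 probes, from the values quantile-normalized, and served as an alternative. Here, limma 3.58.1 in R 4.3.3 corrected background and normalized with neqc (offset 16). The detection filter kept 17346 probes, and the brightest probe stood for each symbol of the platform annotation (12380 features). This rule hides probes that disagree, so probes were also fitted singly.

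One limma model with a mean per group was fitted to all 12 arrays (8 residual and 6.86 prior degrees of freedom), with two-sided tests, 5 comparisons and Benjamini-Hochberg adjustment over all features in each. A permutation test of 3 against 3 arrays cannot give a p under 0.1, so none was used. The members, roles, gene lists and markers were chosen with earlier results of these data known. Values on every array are given for up to 3 called members per role, direction and nCB comparison with the largest change. They are also given for Mcoln1, Lamp1, Atp6v0d1 and members whose probes disagree in sign with 1 of them called. For Tfeb and Atp6v0d2 the range over the 12 arrays is given. Up to 3 genes per direction are named from other lists. The script was tested on simulated data. The replicate numbers were not used as pairs: after group means were removed, 5 of 18 pairs with the same number correlated over 0.1 and 15 of 36 with different numbers. Alternatives covered normalization, background, filters, the mean of a gene's probes, each probe as its own feature and the fitted groups. They also covered the replicate number as a block, the prior and each array left out. Promoters and the microRNA came from RefSeq tables, and gene positions are those of GRCm38.p6.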

Additional observations from a re-analysis of the deposited data

Results flagged for a closer look

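Lipa, the lysosomal acid lipase, lay lower in the knockout than in wild type under PBS on every array (10.32 to 10.35 against 10.40 to 10.53) and higher under nCB on every array (11.00 to 11.26 against 10.72 to 10.76). The group differences were −0.11 ± 0.11 and 0.36 ± 0.11 on the log2 scale, and neither was called by limma. The test of the difference between them, the genotype by nCB interaction, gave 0.47 ± 0.15 with a 95% interval of 0.15 to 0.79 and an adjusted p of 0.277, which did not pass the threshold. Groups of knockout and wild type did not overlap in the lower direction under PBS for 7.04% of all features. Under nCB they did not overlap in the higher direction for 10.5%. For the second Lipa probe the PBS groups overlapped (9.14 to 9.24 in the knockout and 9.08 to 9.39 in wild type). Its interaction was 0.38 ± 0.18 (limma adjusted p = 0.505).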

How the results depend on the processing

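No called member difference reversed its direction under any alternative. All alternatives but the mean of the probes kept the brightest probe of each gene. Dimmer probes could differ in sign. In the knockout 1 Gusb probe differed by −0.16 ± 0.16 and the second Atp6v1h probe by −0.01 ± 0.17, neither called. Scaling to a common median without quantile normalization left 2 members higher and 1 lower in wild type and 4 higher and 0 lower in the knockout. Of all features, 4.29% were then called higher in wild type and 4.01% in the knockout. The cause was not tested. Lower members in wild type numbered 2 with no background correction, with an offset of 50, with detection on all 12 arrays and with the robust prior and trend. The features called lower there numbered 1273 and 1278 of 12380, 1099 of 8063 and 1217 of 12380, in the same order. The highest counts were 16 higher in wild type (no background correction, an offset of 50, the robust prior) and 20 in the knockout (no background correction). Of all features, 9.45%, 9.47% and 9.36% were called higher in these wild-type settings and 9.48% in that of the knockout. Lower members in the knockout numbered 3 with the mean of the detected probes, where Asah1 was added, against 973 of 12380 features. They numbered 1 with the deposited matrix, without a detection filter and with the compared groups alone. The features called lower there numbered 687 of 12380, 784 of 37875 and 678 of 12380. Higher members between genotypes under nCB numbered 1 (Lipa) with no background correction, an offset of 50, no detection filter and the robust prior. Of all features, 2.46%, 2.49%, 0.298% and 2.41% were called higher there. The replicate number as a block, which the pairing check did not bear out, left 13 members higher in wild type and 15 higher and 1 lower in the knockout. With the block, 8.25% of all features were higher in wild type. In the knockout 7.99% were higher and 812 of 12380 lower. Leaving out 1 array gave 10 to 14 members higher and 0 to 1 lower in wild type, against 6.88% to 8.99% of features higher and 816 to 1186 lower. In the knockout it gave 13 to 19 higher and 1 to 2 lower, against 6.51% to 8.77% higher and 647 to 910 lower. Between genotypes under nCB it gave 0 to 1 higher, against 0.687% to 2.6% of features. CACGTG in place of the 10-base element gave 9 promoters and TCACGTGA, added after seeing the data, 5. Of the calls, 1 of 14 in wild type (Cd63) and 4 of 20 in the knockout (Cd63, Atp6v0a1, Lipa and Psap) held under every alternative. The chip as a block was not run because the headers name no chips, and the interaction cannot be fitted on only the groups compared. Low signal limits Gla and Galc, and Tfeb and Atp6v0d2 could not be tested.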
